A study of Homo sapiens with 6 samples.

Results

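The genes described here make and run the translation machinery: initiation factors of the eIF1 to eIF5 families, the elongation factor EEF1A2 with enzymes that modify elongation factors, the release factor ETF1, the poly(A)-binding proteins and the aminoacyl-tRNA synthetases. They were chosen by gene symbol alone, from array rows that the platform annotation assigns to exactly 1 gene, and kinases of eIF2alpha and genes on chromosomes 8 and 13 were left out. Of 14232 genes tested, 76 had such a symbol, 8 of these lay on chromosome 8 or 13, and 68 remained, each with 1 row. No member was removed for a low value. Since membership rests on names, the set also holds proteins that only carry such a name, such as EIF4A3, a helicase of the exon junction complex, and PABPC1P2, a pseudogene whose probes may also bind RNA of its parent gene, which was not tested.

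The study asked which transcripts depend on MTDH (metadherin), a protein often overproduced in carcinomas. MTDH knockdown cells, Ishikawa H cells that stably carry a short hairpin RNA (shRNA) against MTDH, were measured on 3 arrays and compared with 3 arrays of cells labelled MTDH control. Ishikawa H is a line from a well differentiated, grade 1 endometrioid adenocarcinoma of the uterus, and all 6 samples carry the labelled p53 mutation G186T. The labels do not say what the control cells received, while the study's text speaks of a control shRNA. Puromycin-resistant single clones were expanded, and the labels speak of biological replicates while the series' design text also names experimental ones. Each group may therefore be 1 clone, in which case clone and knockdown cannot be told apart, and a p-value here covers no more than the spread between arrays. No treatment other than transfection and selection was given.

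The values are log2 expression values as the authors deposited them, 1 per gene and array, and a difference of 1 on this scale is a 2-fold difference. MTDH had log2 values of 5.77, 5.89 and 5.84 on knockdown arrays 1, 2 and 3, against 6.89, 7.04 and 6.63 on control arrays 1, 2 and 3. All knockdown arrays lay below all control arrays, and MTDH was 2.02-fold lower in knockdown cells (log2 fold change -1.02, SE 0.17, limma, adjusted p = 0.029). Its direction held in all 6 fits that left out 1 array each, while its adjusted p reached 0.16 and was over 0.05 in 4 of them, those without knockdown replicate 1, 2 or 3 or control replicate 1. Pairs of arrays correlated at 0.900 to 0.980 over all genes. Control replicate 3 had the lowest of these correlations, 0.900 to 0.955, against 0.959 or more among the other 5 arrays, and on it the median gene read 0.14 above its mean over the 6 arrays. Epithelial markers such as EPCAM and KRT8 averaged 6.61 to 6.94 on the knockdown arrays and 6.77 to 6.94 on the control arrays, with 5 of 6 above the array median everywhere. None of the 4 blood cell and 4 endothelial markers measured was above it on every array, but 2 of 5 fibroblast and smooth muscle markers were. In such bulk RNA a smaller share of cells and less RNA per cell cannot be told apart.

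Translation begins when eIF2 brings the initiator tRNA to the small ribosomal subunit, while eIF4E binds the cap of the mRNA and eIF4G bridges it to eIF3 on that subunit. The exchange factor eIF2B recharges eIF2 with GTP, and phosphorylation of eIF2alpha blocks that step under stress, which lowers initiation on most mRNAs but favours that of ATF4. Aminoacyl-tRNA synthetases join each amino acid to its tRNA, 1 set of genes serving mainly the cytosol and another the mitochondria, and ATF4 is known to induce many of the cytosolic set. eIF4E is a known growth-promoting factor in carcinomas, and its binding proteins hold it inactive until mTOR phosphorylates them.

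No member passed the test between MTDH knockdown and control cells. At an adjusted p under 0.05, 0 of 68 members and 85 of 14232 genes (0.597%) were called by limma with Benjamini-Hochberg adjustment over all genes, 53 of them higher and 32 lower in knockdown cells. The count over all genes was 12 without control replicate 1, 233 without control replicate 2, and 20, 22 and 20 without knockdown replicates 1, 2 and 3. The lowest adjusted p of a member was 0.074, for EIF4E, and 17 members had an unadjusted p under 0.05, 14 of them higher and 3 lower, against 14.1% of all genes. Members' log2 fold changes ran between -0.55 for GARS1 and 1.15 for EIF4E, and only EIF4E differed by 2-fold or more. Their standard errors were 0.15 to 0.45, and the 95% interval of the log2 fold change excluded 0 in 17 members.

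In direction, 50 of 68 members (73.5%) had a positive log2 fold change and 18 a negative one, with a median of 0.29. Over all genes tested 39.3% were positive and the median was -0.08. A mean log2 value above 6 was found in 41 members, and of the 2731 genes in all with a mean log2 value above 6, 70.0% were positive with a median of 0.18. All 3 knockdown arrays lay above all 3 control arrays in 16 members and below them in 4, and the groups overlapped in 48. Among all genes, 8.81% lay entirely above, 11.2% entirely below and 20.0% did not overlap in either direction. Without control replicate 2 the groups did not overlap in 38 members, beside 42.6% of all genes. The 41 members with a mean above 6 held 36 of the positive values, a median of 0.37, 13 of the non-overlapping higher genes, beside 18.6% of all genes as bright, and 2 of the lower ones, beside 6.81%. The 27 dimmer members held 14 positive values and a median of 0.04, beside 32.0% and -0.12 for all dimmer genes. The 4 members below the lower quartile of every array were EIF2S2, PABPC1P2, PABPC5 and EIF1AY, the last of which is Y-linked and is counted but given no value.

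**Figure D1:**
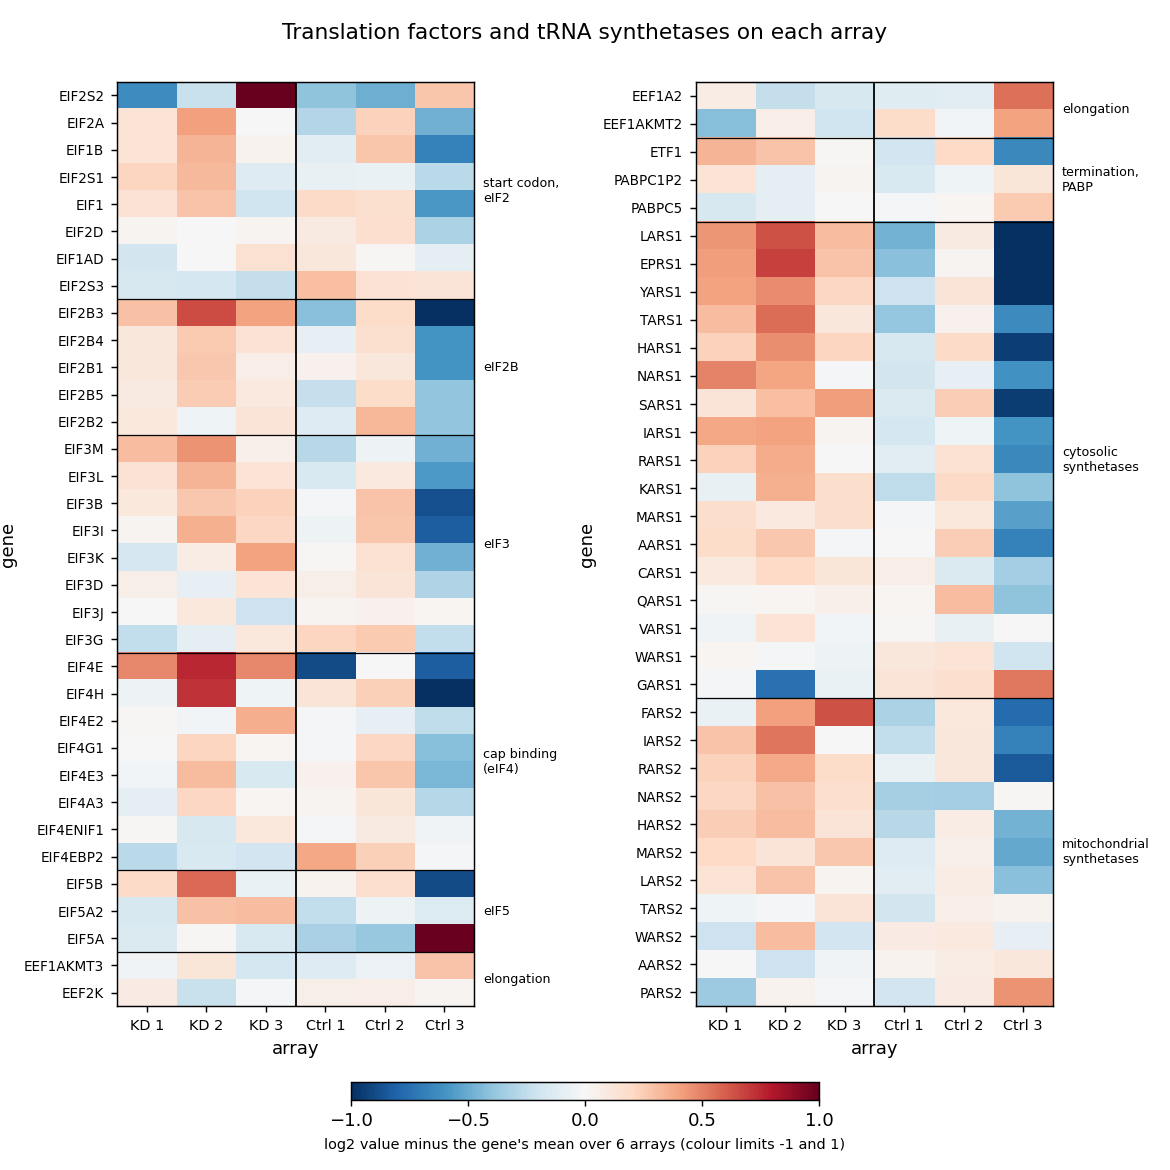
Log2 value minus the gene's mean over the 6 arrays (colour) for each member (rows, by role; EIF1AY is not drawn) on knockdown (KD) arrays 1 to 3 and control (Ctrl) arrays 1 to 3 (columns). The cytosolic synthetases form a block that is above its mean on most knockdown arrays and below it on control array 3.

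The set's shift toward positive values kept its direction but became smaller when 1 array was left out. Control replicate 3 gave the lowest of the 6 values in 45 members (66.2%), against 25.4% of all genes and 62.1% of genes with a mean above 6. The members' median deviation from their own means was 0.08, 0.26 and 0.05 on knockdown arrays 1, 2 and 3, against -0.08, 0.11 and -0.41 on control arrays 1, 2 and 3. Bright genes as a whole deviated in much the same order, at 0.08, 0.19 and 0.03 on the knockdown arrays and -0.01, 0.08 and -0.31 on the control arrays. Without control replicate 3, 45 members (66.2%) were positive, the median was 0.10, and 11 members had the opposite sign. Beside this, 46.3% of all genes were positive with a median of -0.02, and 60.1% of genes with a mean above 6 with a median of 0.07. After cyclic loess normalization, which removes a brightness-dependent difference between arrays, 46 members (67.6%) were positive, the median was 0.13, and 10 had the opposite sign. Of all genes 47.2% were then positive, and of genes with a mean above 6, 49.4% with a median of -0.01. With both steps together, 40 members (58.8%) were positive and the median was 0.05, beside 49.3% and 0.00 over all genes and 49.4% and 0.00 over genes with a mean above 6. What share of the members' shift that array carries beyond its brightness offset was not tested.

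**Figure D2:**
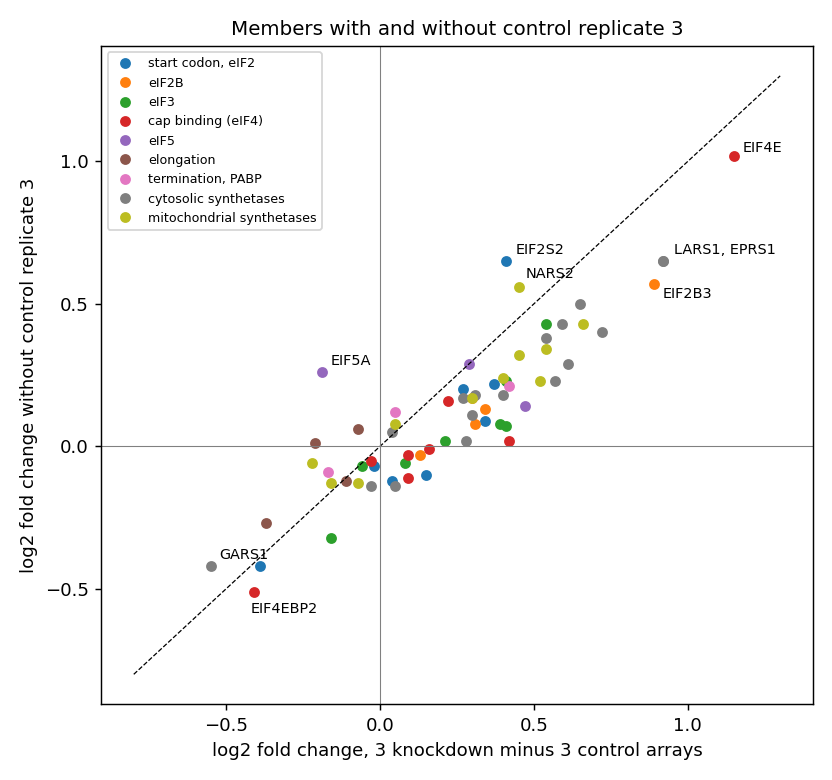
Log2 fold change of each member with all arrays (horizontal axis) and without control replicate 3 (vertical axis), coloured by role, with a dashed line of equality; EIF1AY is not drawn. Most members with a positive value fall below the line, and EIF4E stays at 1.02 without that array.

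The cap-binding factor EIF4E had the largest log2 fold change of the set. EIF4E (transcript cluster 2778980, chromosome 4), which binds the mRNA cap, had log2 values of 8.05, 8.33 and 8.05 in knockdown cells, against 6.68, 7.58 and 6.75 in control cells. Every knockdown array lay above every control array, and control replicate 2 was the control nearest to them. The difference was 1.15 (SE 0.24, 95% interval 0.62 to 1.67, 2.21-fold, limma, adjusted p = 0.074). It was 0.92 after loess normalization (adjusted p = 0.080), 1.02 without control replicate 3 (adjusted p = 0.14), and 0.98 to 1.43 over the fits that left out 1 array each (adjusted p between 0.0088 and 0.31). Of those fits only the one without control replicate 2 let EIF4E pass the test, at the adjusted p of 0.0088. There EIF2B3, EPRS1 and LARS1 passed too, which made 4 members, when 1.64% of all genes were called.

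EIF4EBP2, a repressor that competes with eIF4G for eIF4E, lay on the other side. EIF4EBP2 (transcript cluster 3250699, chromosome 10) had log2 values of 8.12, 8.24 and 8.20 in knockdown cells, against 8.78, 8.63 and 8.38 in control cells. The groups did not overlap, with a log2 fold change of -0.41 (SE 0.17, limma, adjusted p = 0.31), which was -0.51 without control replicate 3 and -0.63 after loess normalization (adjusted p = 0.078). The cap-binding group holds the members with an eIF4 name, not all of which bind the cap. In its other 6 members the knockdown and control arrays overlapped. EIF4G1, the scaffold that binds eIF4E, had a log2 fold change of 0.16, and EIF4E2, a cap-binding relative that represses translation, 0.22. EIF4E3 and EIF4A3 both had 0.09, and EIF4ENIF1, which carries eIF4E into the nucleus, -0.03. EIF4H, a cofactor of the helicase eIF4A, had log2 values of 6.85, 7.62 and 6.86 in knockdown cells, against 7.03, 7.14 and 5.90 in control cells. Its difference of 0.42 was 0.02 without control replicate 3. Of the 8 members of this group 6 were positive, with a median of 0.13, and without that array 3 were, with a median of -0.02.

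The 250 bases before the EIF4E start are shown because EIF4E differed most and because this stretch holds 2 copies of the E-box CACGTG, the element bound by MYC and related factors. They lie at chr4:98929134-98929383 on the minus strand (RefSeq, GRCh38.p14), with the E-boxes in capitals and their first bases at positions -225 and -72 from the start.
EIF4E: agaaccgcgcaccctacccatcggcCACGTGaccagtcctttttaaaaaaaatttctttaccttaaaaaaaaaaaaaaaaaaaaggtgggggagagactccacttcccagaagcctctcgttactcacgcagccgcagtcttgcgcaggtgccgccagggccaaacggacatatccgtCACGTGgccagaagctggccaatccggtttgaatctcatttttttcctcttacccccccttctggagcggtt
RefSeq promoters were listed for 58 of 68 members, as windows of 300 bases that run 250 before to 50 after a start. CACGTG, which reads the same on both strands, stood in 11 of the 58 members and in 8.77% of all 27305 genes with a promoter. Counted by window, it stood in 11 of the members' 77 and in 7.26% of all 35116. The members with it included EIF4E at a log2 fold change of 1.15 and EIF2B3 at 0.89, but also EIF4G1 at 0.16, EIF4A3 at 0.09 and EEF2K at -0.11. A match describes these letters and shows no binding.

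**Figure D3:**
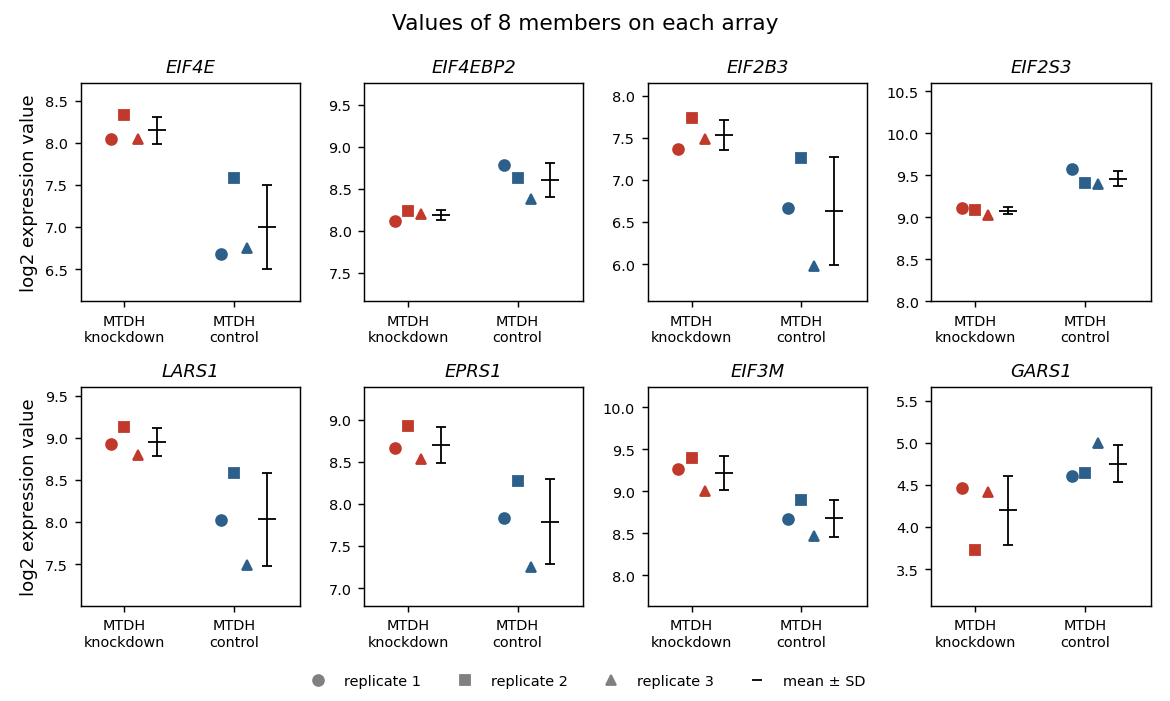
Log2 expression value (vertical axis; each panel has its own range of the same length) of 8 members on each array, with the mean and SD of 3 arrays beside the points, for MTDH knockdown and MTDH control. The groups do not overlap in any of the 8 panels, and EIF4EBP2, EIF2S3 and GARS1 are the 3 that are lower in knockdown cells.

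Among the factors that select the start codon, the only member whose groups did not overlap was lower in knockdown cells. EIF2S3 (transcript cluster 3971877, chromosome X), the gamma subunit of eIF2 that binds GTP and the initiator tRNA, had log2 values of 9.11, 9.09 and 9.03 in knockdown cells, against 9.57, 9.41 and 9.40 in control cells. Both groups were tight and did not overlap, and the log2 fold change was -0.39 (SE 0.15, limma, adjusted p = 0.31). It was -0.42 without control replicate 3 and -0.58 after loess normalization. The alpha subunit EIF2S1, the one that stress kinases phosphorylate, had 9.30, 9.41 and 8.96 in knockdown cells, against 9.01, 9.02 and 8.82 in control cells, with 1 knockdown array below both higher controls. Its difference was 0.27 (SE 0.18). The row annotated to the beta subunit EIF2S2 was very dim. Its mean was 2.19 ± 1.11 in knockdown cells and 1.79 ± 0.42 in control cells (SD, n = 3 each), with 1 array, knockdown replicate 3, at 3.45. The number of its transcript cluster, 2514926, falls between those of PABPC1P2 and MARS2 on chromosome 2, while EIF2S2 lies on chromosome 20. Whether the row reads EIF2S2 was not tested. The row's difference of 0.41 came from knockdown replicate 3 and was -0.22 without it, so no direction can be given. EIF1 and EIF1B, which keep the scanning ribosome from starting at wrong codons, differed by 0.15 and 0.34, but by -0.10 and 0.09 without control replicate 3. EIF2A and EIF2D, factors that can bring tRNA to the ribosome apart from eIF2, differed by 0.37 and 0.04, and EIF1AD by -0.02. Of these 9 members 6 were positive, and 4 without that array.

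All 5 subunits of the exchange factor eIF2B had positive log2 fold changes, between 0.13 and 0.89, and all 5 were lowest on control replicate 3. EIF2B3 (transcript cluster 2409904, chromosome 1), the gamma subunit that works with the catalytic epsilon subunit, had log2 values of 7.37, 7.73 and 7.48 in knockdown cells, against 6.66, 7.26 and 5.98 in control cells. The groups did not overlap, but the control arrays spread over more than the difference between the means, which was 0.89 (SE 0.28, 95% interval 0.27 to 1.51, limma, adjusted p = 0.22). It was 0.57 without control replicate 3 and 1.21 without control replicate 2, where it passed the test (adjusted p = 0.030). EIF2B5, the catalytic subunit itself, had 5.43, 5.60 and 5.44 in knockdown cells, against 5.11, 5.53 and 4.95 in control cells, a difference of 0.30 in overlapping groups. EIF2B4 and EIF2B1 differed by 0.34 and 0.31, and EIF2B2 by 0.13. Without control replicate 3 the median of the 5 subunits was 0.13, against 0.31 with it, and EIF2B2 was at -0.03.

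The eIF3 complex, a scaffold of many subunits on the small ribosomal subunit, had 8 members, 6 of them positive with a median of 0.30. EIF3M had log2 values of 9.26, 9.40 and 9.00 in knockdown cells, against 8.67, 8.90 and 8.47 in control cells, without overlap, and a difference of 0.54 (SE 0.18, limma, adjusted p = 0.25). Leaving out control replicate 3 left it at 0.43. EIF3L had 7.68, 7.87 and 7.67 in knockdown cells, against 7.38, 7.63 and 6.96 in control cells, where knockdown replicate 3 stood only just above control replicate 2. Its difference was 0.41 (SE 0.20, adjusted p = 0.37), or 0.23 without control replicate 3. EIF3B and EIF3I, subunits of the conserved core, differed by 0.41 and 0.39, and without that array by 0.07 and 0.08. EIF3K, the partner of EIF3L within the complex, differed by 0.21, EIF3D, which can itself bind caps of some mRNAs, by 0.08, the loosely bound EIF3J by -0.06 and EIF3G by -0.16. Control replicate 3 was the lowest array in 7 of the 8, and without it the median was 0.04.

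In the later steps of translation no member had groups that did not overlap. EIF5B, the GTPase that joins the ribosomal subunits, had log2 values of 7.29, 7.66 and 7.03 in knockdown cells, against 7.13, 7.26 and 6.20 in control cells. The groups overlapped, and the difference of 0.47 (SE 0.28, limma, adjusted p = 0.45) was 0.14 without control replicate 3. EIF5A, which helps the ribosome past runs of proline, had 4.78, 4.93 and 4.77 in knockdown cells, against 4.60, 4.54 and 5.91 in control cells. Control replicate 3 alone set its difference of -0.19, which was 0.26 without that array, while its paralog EIF5A2 differed by 0.29 with or without it. All 4 elongation members were negative: EEF1A2, a tissue-restricted carrier of aminoacyl-tRNA, at -0.21, EEF2K, the kinase that inhibits eEF2, at -0.11, and the eEF1A methyltransferases EEF1AKMT2 and EEF1AKMT3 at -0.37 and -0.07. EEF1AKMT2 had 5.18, 5.67 and 5.41 in knockdown cells, against 5.79, 5.58 and 6.01 in control cells, with overlap at 1 array of each group (adjusted p = 0.39). Without control replicate 3, EEF1A2 and EEF1AKMT3 were at 0.01 and 0.06. ETF1, the release factor that reads stop codons, had 7.19, 7.14 and 6.86 in knockdown cells, against 6.66, 7.05 and 6.21 in control cells. Its groups overlapped, and its difference was 0.42 (SE 0.22, adjusted p = 0.40), or 0.21 without control replicate 3. The dim poly(A)-binding rows PABPC1P2 and PABPC5 were at 0.05 and -0.17.

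**Figure D4:**
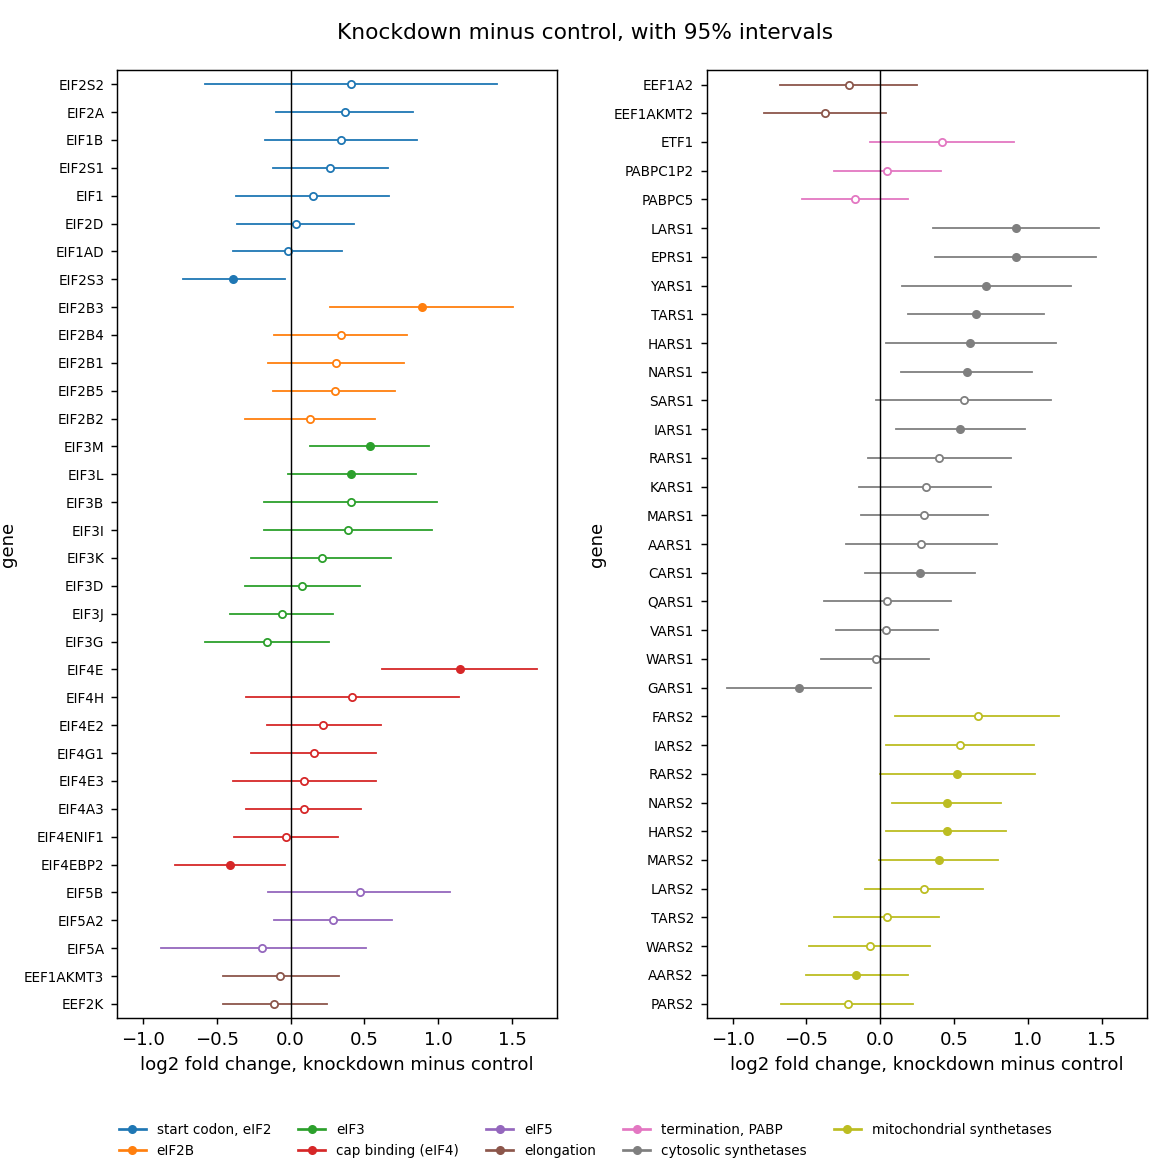
Log2 fold change, knockdown minus control, of each member with its 95% interval from limma (EIF1AY is not drawn), coloured by role. Filled points are members whose 3 knockdown and 3 control arrays do not overlap, and 9 of the 17 cytosolic synthetases are filled, 8 of them to the right of 0.

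The cytosolic tRNA synthetases held 8 of the 16 members whose knockdown arrays all lay higher, a state of 8.81% of all genes and 18.6% of genes with a mean above 6. Of 17 cytosolic synthetases 15 were positive, with a median log2 fold change of 0.40, and none passed the test, with a lowest adjusted p of 0.16. LARS1 (leucine; transcript cluster 2879927, chromosome 5) had log2 values of 8.93, 9.13 and 8.80 in knockdown cells, against 8.02, 8.58 and 7.49 in control cells. EPRS1 (glutamate and proline in 1 protein; transcript cluster 2456746, chromosome 1) had 8.66, 8.93 and 8.53 in knockdown cells, against 7.83, 8.27 and 7.25 in control cells. In both genes control replicate 3 was far below and control replicate 2 nearest to the knockdown arrays. The difference was 0.92 in each, with limma adjusted p of 0.17 for LARS1 and 0.16 for EPRS1. Both were at 0.65 without control replicate 3 and at 0.70 after loess normalization. Without control replicate 2 they passed the test, at 1.20 (adjusted p = 0.023) for LARS1 and 1.16 (adjusted p = 0.031) for EPRS1. YARS1 (tyrosine) had 7.35, 7.42 and 7.15 in knockdown cells, against 6.74, 7.07 and 5.94 in control cells, without overlap. It differed by 0.72 (SE 0.26, adjusted p = 0.27), or by 0.40 without control replicate 3.

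Several further synthetases are named here after their values were seen. TARS1 (threonine) had log2 values of 7.40, 7.65 and 7.21 in knockdown cells, against 6.71, 7.14 and 6.46 in control cells, a non-overlapping difference of 0.65. HARS1 (histidine), NARS1 (asparagine) and IARS1 (isoleucine) differed by 0.61, 0.59 and 0.54, and CARS1 (cysteine) by 0.27, all without overlap. SARS1 (serine) at 0.57, RARS1 (arginine) at 0.40, KARS1 (lysine) at 0.31, MARS1 (methionine) at 0.30 and AARS1 (alanine) at 0.28 had overlapping groups, as did QARS1 (glutamine) at 0.05, VARS1 (valine) at 0.04 and WARS1 (tryptophan) at -0.03. GARS1 (glycine, transcript cluster 2995420, chromosome 7) went the other way, but its row was dim, with a mean of 4.47 over the 6 arrays. Of all genes with a mean of 6 or lower, 32.0% were positive. GARS1 had 4.46, 3.73 and 4.41 in knockdown cells, against 4.60, 4.64 and 5.00 in control cells, with all knockdown arrays lower and replicate 2 the lowest by far. Its difference was -0.55 (SE 0.22, 95% interval -1.04 to -0.06, adjusted p = 0.31), or -0.31 without knockdown replicate 2.

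Control replicate 3 was the lowest of the 6 arrays in 15 of the 17 cytosolic synthetases. Without it 14 were positive with a median of 0.18, while AARS1 was at 0.02 and QARS1 at -0.14. After loess normalization 13 were positive, also with a median of 0.18, beside a median of -0.02 over all genes. Of the synthetases measured, 7 belong to the multi-synthetase complex, a grouping made after the values were seen: EPRS1, LARS1, IARS1, RARS1, KARS1, MARS1 and QARS1. All 7 were positive, between 0.05 and 0.92 with a median of 0.40, and 3 had groups that did not overlap, with knockdown higher. All 7 have a mean above 6, and of all genes that bright 70.0% were positive and 18.6% lay entirely higher. All 7 were lowest on control replicate 3, beside 62.1% of genes that bright. Without that array 6 were positive with a median of 0.18, beside 60.1% and 0.07.

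The promoters of the cytosolic synthetases are shown because 7 of the 14 with a listed promoter hold TGATGNAA, the core of the C/EBP-ATF response element through which ATF4 acts, searched on both strands of the 300-base windows. Of all 27305 genes with a promoter 4.46% hold it. Counted by window, it stood in 7 of the 19 of these synthetases and in 3.62% of all 35116, and the only member outside this class with a match was EIF4E3. Each line gives 30 bases around the match (RefSeq, GRCh38.p14) on the strand of the gene, with the match in capitals.
TARS1: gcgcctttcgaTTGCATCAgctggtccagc
NARS1: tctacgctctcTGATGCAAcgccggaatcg
IARS1: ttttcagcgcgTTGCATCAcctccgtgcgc
MARS1: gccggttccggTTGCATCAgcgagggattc
AARS1: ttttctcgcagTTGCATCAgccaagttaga
CARS1: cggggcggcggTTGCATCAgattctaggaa
GARS1: ttacgcggcgaTTTCATCAtgctccgagcc
They lie on the plus strand for TARS1 (chr5:33440956-33440985), MARS1 (chr12:57488053-57488082) and GARS1 (chr7:30594834-30594863). They lie on the minus strand for NARS1 (chr18:57621804-57621833), IARS1 (chr9:92293692-92293721), AARS1 (chr16:70289675-70289704) and CARS1 (chr11:3057407-3057436). In 6 of the 7 the match is the same run of 8 letters, read on either strand, and GARS1 alone has another base in the free position. The 7 synthetases with the element had a median log2 fold change of 0.30, and the 7 without it 0.40. The element was thus found both in TARS1 at 0.65 and in GARS1, read from a dim row, at -0.55. LARS1 at 0.92, YARS1 at 0.72 and VARS1 at 0.04 were not among the promoters listed.

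The mitochondrial synthetases had 11 members, 8 of them positive with a median of 0.40. RARS2 (arginine) had log2 values of 7.36, 7.51 and 7.32 in knockdown cells, against 7.07, 7.25 and 6.29 in control cells, a difference of 0.52 (SE 0.24, limma, adjusted p = 0.36). HARS2 (histidine) had 5.57, 5.63 and 5.45 in knockdown cells, against 5.05, 5.40 and 4.85 in control cells, a difference of 0.45 (SE 0.18, adjusted p = 0.32). In both the groups did not overlap and control replicate 3 was lowest, and without it they stood at 0.23 and 0.32. NARS2 (asparagine) was an exception: it had 5.06, 5.14 and 5.02 in knockdown cells, against 4.52, 4.50 and 4.86 in control cells, so that control replicate 3 was the highest control. Its difference of 0.45 (SE 0.17, adjusted p = 0.28) was 0.56 without that array and 0.56 after loess normalization. FARS2 (phenylalanine) differed by 0.66 with overlapping groups, IARS2 by 0.54, MARS2 by 0.40 without overlap, and LARS2 by 0.30. TARS2, WARS2, AARS2 and PARS2 were at 0.05, -0.07, -0.16 and -0.22, and of these only AARS2 had groups that did not overlap. Without control replicate 3, 8 of the 11 were positive with a median of 0.23, and after loess normalization 9 were with a median of 0.31.

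HARS1 and HARS2, which charge histidine tRNA of the cytosol and the mitochondria, are divergent neighbours whose RefSeq starts lie 85 bases apart. The 84 bases between them are shown because both genes had non-overlapping, higher values in knockdown cells. They lie at chr5:140691371-140691454 (RefSeq, GRCh38.p14) and are written on the minus strand, with 2 copies of the ETS element CCGGAAGT, 1 on each strand, in capitals.
HARS1 and HARS2: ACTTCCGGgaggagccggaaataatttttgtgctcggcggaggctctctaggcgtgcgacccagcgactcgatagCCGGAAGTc
CCGGAAGT stood on either strand in 15 of the 58 members with a promoter and in 4.95% of all genes with one, or in 15 of the members' 77 windows and in 4.14% of all windows. HARS1 differed by 0.61 and HARS2 by 0.45, and by 0.29 and 0.32 without control replicate 3.

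**Figure D5:**
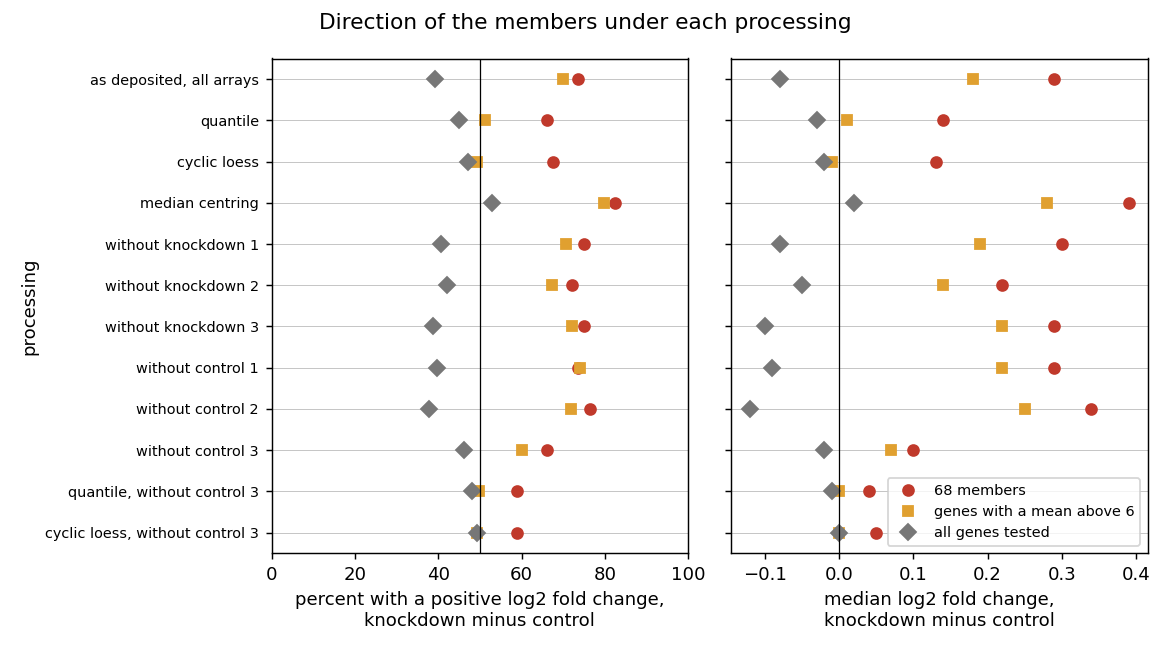
Percent of genes with a positive log2 fold change (left) and median log2 fold change, knockdown minus control (right), for the 68 members, the genes with a mean log2 value above 6 and all genes tested, under each processing (rows). The members' points move toward 50% and 0 when control replicate 3 is left out, and are 58.8% and 0.04 or 0.05 when it is left out of normalized values.

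Genes of the pathway outside the name rule were read from the same fit. Of 63 genes in 6 lists 56 were measured, 0 passed the test in either direction, and 9 had an unadjusted limma p under 0.05, beside 14.1% of all genes. Among the recycling and scanning partners, 9 of 10 were positive with a median of 0.37. ABCE1, the ATPase that splits ribosomes after termination, had a mean log2 value of 7.75 ± 0.30 in knockdown cells and 6.70 ± 0.73 in control cells (SD, n = 3 each). All knockdown arrays lay higher, but only just, since knockdown replicate 3 and control replicate 2 both round to 7.41. The difference was 1.05 (SE 0.32, adjusted p = 0.21), or 0.67 without control replicate 3. Without control replicate 2 it was 1.40 and passed (adjusted p = 0.027). DHX29, a helicase that helps scanning, differed by 0.65 in overlapping groups, or by 0.36 without control replicate 3.

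The regulators around eIF2 had no common direction. Of 9 eIF2alpha kinases and phosphatase subunits 6 were positive, with a median of 0.08. EIF2AK3 (PERK), the kinase of the endoplasmic reticulum, had log2 values of 5.52, 5.71 and 5.44 in knockdown cells, against 4.83, 4.91 and 4.62 in control cells, without overlap and with little spread in either group. Its difference was 0.77 (SE 0.17, limma, adjusted p = 0.082), and 0.69 without control replicate 3. PPP1R15A (GADD34), which directs the phosphatase to eIF2alpha, had 4.50, 4.28 and 4.66 in knockdown cells, against 4.86, 4.74 and 5.11 in control cells, a non-overlapping difference of -0.42 (adjusted p = 0.32). Of 13 ATF4 response genes 7 were positive, with a median of 0.01. ASNS, asparagine synthetase, had 7.34, 7.66 and 7.34 in knockdown cells, against 6.80, 6.82 and 6.45 in control cells, without overlap, a difference of 0.76 (SE 0.18, adjusted p = 0.12) that was 0.63 without control replicate 3. CHAC1, which degrades glutathione, differed by -0.37 in overlapping groups, or by -0.11 without that array.

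The remaining lists were as mixed. Of 11 mTOR and eIF4E regulators 5 were positive, with a median of -0.06. RICTOR, the defining subunit of mTOR complex 2, had log2 values of 4.58, 5.17 and 4.70 in knockdown cells, against 4.14, 4.29 and 3.66 in control cells, a non-overlapping difference of 0.79 (SE 0.22, limma, adjusted p = 0.18), while MTOR itself differed by 0.33. Without control replicate 3 they stood at 0.60 and 0.14. Of 7 mitochondrial translation factors 5 were positive, led by the elongation factor GFM1 at 0.70 and the initiation factor MTIF2 at 0.44, which were at 0.56 and 0.25 without that array. Of 6 synthetase partners 4 were positive with a median of 0.03. QRSL1 and GATC, subunits of the amidotransferase that makes glutamine tRNA in mitochondria, differed by 0.33 and -0.29, or by 0.07 and -0.17 without control replicate 3.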

How the data were processed

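Amplified, biotin-labelled cDNA of the 6 samples was hybridised to 1 Affymetrix array each. The authors deposited log2 expression values made with Partek Genomics Suite. The Partek version is not given in the sources used here. Neither are the background correction, the normalization or detection calls. The row identifiers match transcript clusters of an exon array in the platform annotation, while the methods name a gene array. Of 22011 rows, 14432 had 1 symbol, 2408 several and 5171 none; rows with 1 symbol were used, and the row with the highest mean was kept per gene (14232 genes, of which 14205 had a chromosome in RefSeq, GRCh38.p14). The number of arrays limits the precision.

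Groups were taken from the sample titles and compared with limma 3.58.1 in R 4.3.3 on the log2 values as deposited, with moderated variances (eBayes) and p-values adjusted by Benjamini-Hochberg over the 14232 genes. The script was tested on simulated data first. Named were MTDH and, per role class, up to 3 members with the largest absolute difference among those whose groups did not overlap, or the largest one where there were none; of each outside list, the 2 largest. Members and lists were chosen with earlier results of these data known. Alternatives were the mean of all rows of a gene, all rows, no dim genes, quantile, median or cyclic loess normalization, a trended robust prior, a test against a fold of 1.5, a replicate block, and dropping each array in turn. Quantile and loess normalization without control replicate 3 were added after the data were seen.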

Additional observations from a re-analysis of the deposited data

How the results depend on the processing

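The number of genes changed, 85 as reported, was 19 with all rows of the table entered, 48 after centring on the median, 364 with a replicate block, 4 in the test against a fold of 1.5, and 12 to 233 when 1 array was left out. The highest of these came without control replicate 2. Members changed, 0 as reported, numbered 3 with the replicate block (EPRS1, EIF4E and LARS1) and 0 to 4 when 1 array was left out, the 4 without control replicate 2; the other alternatives gave 0. Replicate numbers paired the samples only in part, with correlations of deviations of -0.10, 0.47 and 0.31 for replicates 1, 2 and 3. Of 6 samples 4 correlated best with their own number. These values cannot settle whether the arrays were paired, and the reported fit was made without the block. The members' median of 0.29 was 0.10 to 0.34 when 1 array was left out, lowest without control replicate 3, and 0.04 and 0.05 with quantile and loess normalization added to that. Centring on the median made 82.4% of members positive, beside 52.8% of all genes and 79.9% of genes with a mean above 6. It shifted the median of all genes from -0.08 to 0.02. Non-overlapping members, 20 as reported, were 23 to 38 when 1 array was left out, a step that can only keep or raise this count. The share of all genes was 20.0% as reported and 24.4% to 42.6% in those fits. The 38 members and the 42.6% came without control replicate 2. In the pathway lists, for which no alternative had been listed in advance, 0 genes changed as reported, 5 with the block (ABCE1, GFM1, EIF2AK3, ASNS and RICTOR), and 0 to 1 with 1 array left out. For MTDH the adjusted p was over 0.05 under 7 alternatives, 0.16 at most when 1 array was left out, with log2 fold changes of -0.92 to -1.13 there. None of the named members changed sign, which was largely fixed in advance. Most were named for groups that did not overlap, so leaving out an array could not change their sign. The block, the trended prior and the test against a fold of 1.5 leave every log2 fold change as it was. Of the named members' values, 248 kept direction and side of the threshold, and 7 passed it, 3 with the block and 4 without control replicate 2. Why control replicate 2 had this effect was not tested beyond its values. With 3 arrays a group and no detection calls, dim rows cannot be told from background.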

Other observations

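The rows that name several genes, at least 1 of them matching the name rule, hold parts of the machinery that the set lacks. Of the 25 symbols of the rule in them, 6 are also members through another row. There were 27 such rows; 0 passed the limma test, 4 had an unadjusted p under 0.05, beside 14.1% of the genes tested, and 14 were positive with a median log2 fold change of 0.04. They were not read by gene, since probes of neighbours or small RNAs within introns cannot be separated. The row of EIF1AX and SCARNA9L had log2 values of 7.43, 6.80 and 7.45 in knockdown cells, against 7.78, 7.75 and 8.45 in control cells, a non-overlapping difference of -0.76 (adjusted p = 0.37). The row of EEF1B2, an exchange factor for eEF1A, with SNORD51 and SNORA41 had 6.26, 6.23 and 6.52 in knockdown cells, against 5.60, 6.20 and 5.33 in control cells, a difference of 0.63 (adjusted p = 0.41). EEF1A1 with its pseudogene EEF1A1P9 had 5.30, 5.36 and 5.52 in knockdown cells, against 5.02, 4.99 and 4.94 in control cells, a non-overlapping difference of 0.41 (adjusted p = 0.40). EIF5, which triggers GTP hydrolysis by eIF2, with SNORA28 had 7.69, 7.79 and 7.52 in knockdown cells, against 7.39, 7.32 and 6.82 in control cells, a non-overlapping difference of 0.49 (adjusted p = 0.43). The row of EEF2 and SNORD37 differed by -0.04 in overlapping groups. Among rows that share a symbol with a member, the row with YARS1 differed by 0.54, with AARS2 by -0.16 and with EEF1A2 by 0.13. The row with HARS1 differed by -0.08, with EIF3M by -0.03 and with EIF4E3 by -0.42. Only in the row with EIF4E3 did the groups not overlap, with knockdown lower.

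In the cap-binding group, EIF4E and EIF4EBP2 were the only members whose groups did not overlap, with opposite signs, 1.15 and -0.41. Outside the set, EIF4EBP1 was at 0.37 and the row naming EIF4EBP3 with ANKHD1 at 0.50. Neither EIF4E nor EIF4EBP2 changed sign under any alternative run, which held for all 20 members whose groups did not overlap. In such members leaving out an array cannot change the sign. In EIF4E, control replicates 1 and 3 lay close together at 6.68 and 6.75 while control replicate 2 was at 7.58.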
